A study of Mus musculus with 2 samples.

Results

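Of 4543 kept barcodes in the library of cultured costal-cartilage-derived stem cells (CDSCs), 532 (11.7%, 95% interval 10.8 to 12.7%) were selected on the transcripts of 8 genes of cell division. A barcode, the tag that marks the transcripts of 1 droplet and so usually of 1 cell, entered the analysis if it had 500 genes or more, 5000 or more UMIs (unique molecular identifiers, which count captured transcripts once) and at most 10% mitochondrially encoded UMIs. Its score was the summed UMIs of Top2a, Mki67, Cenpf, Cenpe, Ube2c, Hmmr, Nusap1 and Tpx2 as a share of all its UMIs. Members had a score of at least 0.1%, and the 4011 kept barcodes below it served for comparison. The series holds 22694 deposited barcodes in all.

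The cells came from costal cartilage of C57BL/6J pups within their first week, which carried either CD45.1, a variant of the blood cell protein CD45, or the fluorescent protein ZsGreen. The cartilage was digested with collagenase II, cells without CD45 and with the integrin CD51 were sorted, and the sorted cells were grown in minimum essential medium with 10% fetal bovine serum to passages 2 to 3. A second library held primary CDSCs that had not been cultured. Bone marrow is written in the tissue label of both libraries. Each group was 1 library made with the 10x Chromium 3' v3.1 kit, the number of animals behind it is not given in the sources used here, and members share their culture and library with the barcodes they are compared with. No test was therefore possible, and all intervals are exact 95% intervals that cover counting error only.

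A dividing cell copies its DNA in S phase, prepares in G2 and separates its chromosomes in mitosis (M). The cyclin B and Cdk1 kinase drives entry into mitosis, microtubules of the spindle attach to kinetochores on each chromosome, and the anaphase-promoting complex (APC/C) ends mitosis by marking securin and cyclin B for destruction. Many G2/M genes carry short promoter elements, the cell cycle genes homology region (CHR) and CCAAT boxes. The CHR binds the DREAM and MuvB complexes, and through it DREAM keeps these genes off in resting cells. CCAAT boxes bind the factor NF-Y. Replication genes of S phase are mainly under E2F factors.

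In the cultured library, with 10798 barcodes and 336427977 UMIs in all, 57.9% of barcodes failed the filter, and kept barcodes had a median of 66411 UMIs. Members had a median of 72307.5 UMIs and 8087 genes, and the other kept barcodes 65874 UMIs and 7733 genes. The median mitochondrial share was 2.17% in members and 2.38% in the others, and the ribosomal protein share 19.1% and 18.8%. Between the libraries 32 barcode sequences were shared, 12 of them kept in both, and 2 belonged to members. Summed counts were 42136942 UMIs over members and 286777697 over the others, and a gene's level is given as its counts per 1000000 UMIs (CPM) of that sum, on a linear scale. Levels are compared within a gene, never between genes.

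Promoters of the genes that carried the selection, and of the genes beside them, are shown first, because their sequence was not used by the rule. Each line holds the 250 bases before a RefSeq start site on GRCm38.p6, 5' to 3' on the gene's strand, with matches in capitals. A CHR match is TTTGAA or TTCGAA on either strand, and a CCAAT match is CCAAT on either strand, so a match on the other strand reads here as TTCAAA for the first form of the CHR and as ATTGG for CCAAT. Top2a (DNA topoisomerase, which untangles sister chromatids) at chr11:99024190-99024439 (minus strand) and Mki67 (whose protein coats mitotic chromosomes) at chr7:135716380-135716629 (minus strand) are rule genes rich in matches. Ccnb2 (cyclin B2) at chr9:70421555-70421804 (minus strand) and Cdc20 (an activator of the APC/C) at chr4:118437344-118437593 (minus strand) lie outside the rule and were higher in members. Nusap1 at chr2:119618048-119618297 (plus strand) is a rule gene with no match. Zwint (a kinetochore protein) at chr10:72654596-72654845 (plus strand) has CCAAT letters and no CHR, and its level was close in members and the others. Ccnb1 (cyclin B1), which is not printed, also has CCAAT letters and no CHR, but it was higher in members.
Top2a: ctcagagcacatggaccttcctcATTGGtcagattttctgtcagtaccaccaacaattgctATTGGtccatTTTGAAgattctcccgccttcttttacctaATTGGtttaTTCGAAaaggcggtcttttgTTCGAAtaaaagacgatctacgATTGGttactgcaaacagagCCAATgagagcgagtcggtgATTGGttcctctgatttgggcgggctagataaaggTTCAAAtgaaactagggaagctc
Mki67: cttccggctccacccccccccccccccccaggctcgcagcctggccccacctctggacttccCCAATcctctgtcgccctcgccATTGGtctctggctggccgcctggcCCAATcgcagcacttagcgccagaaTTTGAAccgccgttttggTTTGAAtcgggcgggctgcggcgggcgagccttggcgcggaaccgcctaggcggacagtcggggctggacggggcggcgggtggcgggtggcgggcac
Ccnb2: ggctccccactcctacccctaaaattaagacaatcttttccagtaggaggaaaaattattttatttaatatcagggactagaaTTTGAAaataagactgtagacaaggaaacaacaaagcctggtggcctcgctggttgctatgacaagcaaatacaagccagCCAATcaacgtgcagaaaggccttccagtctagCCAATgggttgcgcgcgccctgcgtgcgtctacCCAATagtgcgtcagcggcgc
Cdc20: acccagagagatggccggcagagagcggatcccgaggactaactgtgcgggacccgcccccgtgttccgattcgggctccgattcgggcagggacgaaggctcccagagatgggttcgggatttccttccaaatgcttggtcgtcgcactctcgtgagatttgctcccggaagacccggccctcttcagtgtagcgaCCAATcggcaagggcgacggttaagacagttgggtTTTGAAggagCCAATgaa
Nusap1: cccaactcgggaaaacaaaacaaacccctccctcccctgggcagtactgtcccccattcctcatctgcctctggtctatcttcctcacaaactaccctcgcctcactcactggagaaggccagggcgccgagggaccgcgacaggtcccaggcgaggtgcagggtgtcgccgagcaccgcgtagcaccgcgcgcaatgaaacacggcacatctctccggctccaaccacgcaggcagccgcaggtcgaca
Zwint: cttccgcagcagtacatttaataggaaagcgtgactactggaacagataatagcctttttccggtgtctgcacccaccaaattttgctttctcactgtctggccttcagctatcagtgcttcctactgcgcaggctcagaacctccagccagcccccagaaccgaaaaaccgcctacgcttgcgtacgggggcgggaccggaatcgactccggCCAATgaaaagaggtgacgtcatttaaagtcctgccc

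Over the whole window of 250 bases before to 50 after the start site, Top2a had 4 CHR and 6 CCAAT matches, Mki67 had 2 CHR and 3 CCAAT, Ccnb2 had 2 CHR and 3 CCAAT, Cdc20 had 1 CHR and 2 CCAAT and Zwint had no CHR and 2 CCAAT. The CHR closest to the start site began 23 bases before it in Top2a, 98 in Mki67 and 18 in Cdc20. In Ccnb2 it began 4 bases after it, past the printed stretch, as did 1 CCAAT of Zwint. Of the 8 rule genes 7 were in the table. Of these 7, CHR letters were present in 5 and CCAAT letters in 6, with both in Top2a, Mki67, Cenpf, Ube2c and Hmmr, only CCAAT in Cenpe and neither in Nusap1.

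The share of promoters with CHR letters was higher in mitosis genes than in S phase genes. Of 94 mitosis genes outside the rule (kinases and cyclins, kinetochore, spindle, cytokinesis and APC/C lists) 79 were in the table with 87 promoters, and 58.6% of those had a CHR, 65.5% a CCAAT and 46.0% both. Of all 32851 promoters 19.2% had a CHR, 37.4% a CCAAT and 7.52% both. The 35 promoters of S phase genes had a CHR in 17.1% and a CCAAT in 68.6%, so that the CCAAT shares of the mitosis and S phase lists were close and the CHR shares were not. Among 12 promoters of cytokinesis genes 11 had a CHR. A CHR that began within 50 bases of the start site was present in 49.4% of the mitosis promoters, 5.71% of the S phase promoters and 5.31% of all promoters. A match is a description of letters and not of a bound site, and CHR and CCAAT letters overlapped in 48 of all promoters.

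The 8 rule genes chose the members, so their values describe the choice. Cenpf (ENSMUSG00000026605, chr1:189640606-189688086 on GRCm38), a kinetochore protein, had 532 against 11.2 CPM in members and the others. Cenpe (ENSMUSG00000045328, chr3:135212537-135273611), a kinesin of the kinetochore, had 265 against 6.08 CPM. Nusap1 (ENSMUSG00000027306, chr2:119618298-119651244), which bundles spindle microtubules, had 124 against 2.72 CPM. These 3 had the highest ratios, on the log2 scale 5.57, 5.52 and 5.45 for Cenpf, Nusap1 and Cenpe.

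Mki67 (ENSMUSG00000031004, chr7:135689784-135716361) had 474 against 13.4 CPM. Hmmr (ENSMUSG00000020330, chr11:40701395-40733422), a hyaluronan receptor that also sits on the spindle, had 273 against 8.51 CPM. Ube2c (ENSMUSG00000001403, chr2:164769898-164778822) had 438 against 13.9 CPM. The log2 ratios of Mki67, Hmmr and Ube2c were 5.15, 5.0 and 4.98. Top2a (ENSMUSG00000020914, chr11:98992943-99024189) had 465 against 15.7 CPM (log2 ratio 4.89). Tpx2 (ENSMUSG00000027469, chr2:152847964-152895321), an activator of Aurora A on the spindle, had 301 against 11.9 CPM (log2 ratio 4.67). Levels differed widely between single members. From the lower to the upper quartile, members had 137 to 638 CPM of Cenpf, 78.3 to 694 CPM of Top2a and 256 to 627 CPM of Mki67.

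Scores of members ran from 0.1 to 0.892% with a median of 0.213%. The highest score below the threshold was 0.0994%, and the median there was 0.00285%. Scores formed a continuum, with 3406 barcodes below 0.01%, of which 877 had no UMI of the 8 genes, and 605 between 0.01 and 0.1%. In log bins the fewest in that range were 97 and the most above 0.1% were 160, so the dip between the others and the members was shallow. Just inside the threshold, from 0.1 to 0.11%, lay 40 barcodes, and just outside, from 0.09 to 0.1%, lay 34. Members are thus a range of a score and not a separated type.

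**Figure D1:**
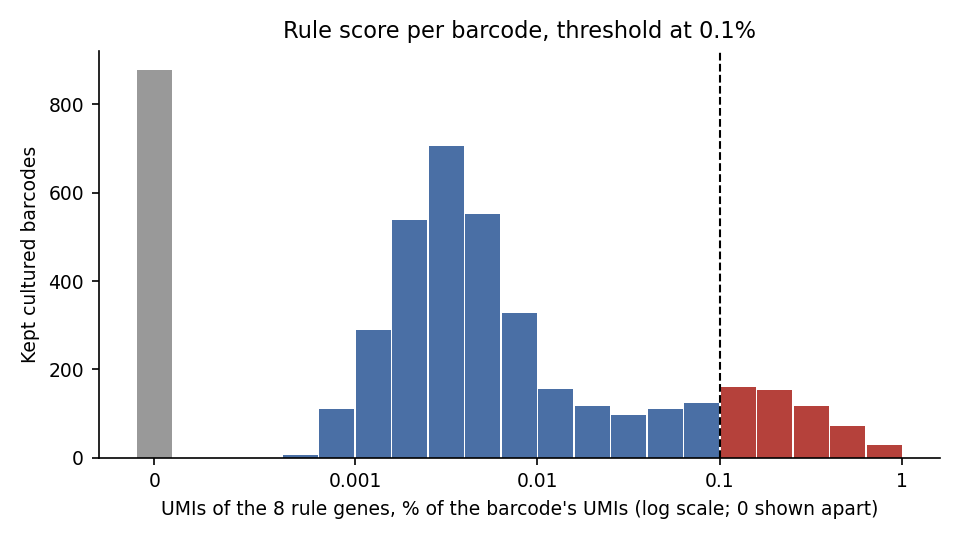
Histogram of the rule score (x axis, percent of a barcode's UMIs, log scale, with barcodes at 0 apart in grey) against the number of kept cultured barcodes (y axis), red for members and blue for the others. The main mode lies below 0.01%, the bins between 0.01 and 0.1% hold 97 to 155 barcodes each, and the 532 members lie to the right of the dashed line at 0.1%, where the first bin holds 160.

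Most members kept their score at a common depth. With every barcode thinned to 5000 UMIs, 480 of the 532 members (90.2%) kept a score of at least 0.1%, and 56 of the 4011 others (1.40%) reached it. At that depth Mki67 was seen in 80.8% of members and 5.31% of the others, and Nusap1 in 33.3% and 1.30%. The shares among the others include the barcodes just under the threshold, and what free transcripts in the droplets add was not tested. The quartile of kept barcodes with the most UMIs held 15.0% members against 10.2 to 11.4% in the lower 3 quartiles.

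Other lists were graded with the score on both sides of the threshold. The 94 mitosis genes outside the rule summed to 2100 CPM in barcodes under 0.05% and 4895 CPM in the 187 from 0.05 to 0.1%. In the quartiles of members by score, from low to high, they summed to 6540, 7909, 10474 and 15636 CPM. The 42 S phase genes summed to 455 and 1853 CPM below the threshold and to 2504, 2943, 2742 and 2131 CPM within members. The mitosis genes were thus higher at each step of the score, while S phase genes were highest in the second quartile and lowest in the fourth. Replication-dependent histones summed to 2313, 3083, 3029 and 908 CPM in the same quartiles.

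The same rule found 141 of 10959 kept barcodes (1.29%, interval 1.08 to 1.52%) in the primary library, whose kept barcodes had a median of 10432 UMIs. Thinned to 5000 UMIs, 145 primary barcodes (1.32%) and 536 cultured barcodes (11.8%, interval 10.9 to 12.8%) reached the threshold. The share was higher in the cultured library at either depth, and with 1 library per group culture and library cannot be told apart.

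Summed over barcodes, 8889 genes had at least 10 CPM in members or in the others. Of these, 534 (6.01%) were at least 2-fold higher in members, 281 of them at least 4-fold, and 75 (0.844%) were at least 2-fold lower, 2 of them at least 4-fold. The median log2 ratio over all 8889 genes was -0.03. The rule used this contrast, so the counts are a description and nothing is read from them beyond it. In the primary library 731 of 8350 genes (8.75%) were at least 2-fold higher in its 141 barcodes over the threshold and 220 (2.63%) at least 2-fold lower.

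Of the 94 mitosis genes outside the rule 93 reached 10 CPM, and 75 of those were at least 2-fold higher in members with none lower. Their median log2 ratio was 3.92, and it was 5.84 in the primary library, where 76 of 94 were at least 2-fold higher. Among mitotic entry genes, 15 of 17 were higher, with a median of 3.44. Plk1, a kinase of mitotic entry and exit, had 80.0 against 2.26 CPM (log2 ratio 5.15, interval 5.03 to 5.27). Ccnb1, cyclin B1, had 134 against 3.79 CPM (log2 ratio 5.15, interval 5.05 to 5.24). Ccnb2 had 123 against 13.3 CPM (log2 ratio 3.21). Aurka, the Aurora A kinase of the spindle poles, had 67.7 against 2.31 CPM (log2 ratio 4.87). Ccna2, cyclin A2, had 93.5 against 3.27 CPM (log2 ratio 4.84). Both exceptions belong to the pathway by which Mastl restrains the phosphatase PP2A. Arpp19 had 221 against 150.5 CPM (log2 ratio 0.55). Ensa had 40.6 against 41.7 CPM (log2 ratio -0.04). Mastl itself had 59.5 against 4.03 CPM (log2 ratio 3.88).

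Kinetochore and checkpoint genes were at least 2-fold higher in members for 25 of 26 genes at 10 CPM, with a median log2 ratio of 4.22. Knl1, the scaffold that recruits checkpoint kinases, had 123 against 3.36 CPM (log2 ratio 5.19, interval 5.10 to 5.30). Sgo2a, which protects centromeric cohesion, had 78.3 against 2.77 CPM (log2 ratio 4.82). Aurkb, the Aurora B kinase, had 52.5 against 1.87 CPM (log2 ratio 4.82). Ndc80, which binds microtubule ends, had 59.9 against 2.20 CPM (log2 ratio 4.77). The exception was Zwint, a partner of Knl1, with 111 against 118 CPM (log2 ratio -0.08, interval -0.12 to -0.04). It was seen in 94.5% of members and 95.1% of the others.

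Of 22 kinesins and spindle genes 20 were at least 2-fold higher, with a median of 4.05. Aspm, which focuses spindle poles, had 87.9 against 1.60 CPM (log2 ratio 5.78, interval 5.64 to 5.93). Kif2c, a kinesin that depolymerises microtubules, had 58.5 against 1.5 CPM (log2 ratio 5.29). The kinesin Kif18b had 24.7 against 0.652 CPM (log2 ratio 5.25). Dlgap5, a spindle assembly factor, had 91.6 against 2.74 CPM (log2 ratio 5.06). The exceptions were Numa1, which anchors spindle poles, with 70.2 against 52.8 CPM (log2 ratio 0.41), and the tubulin Tuba1c, which at 98.7 against 49.4 CPM lay just under 2-fold. The tubulins Tuba1b and Tubb4b, which all cells use, had smaller ratios of 1.66 and 1.54 on the log2 scale. All 10 cytokinesis genes were higher, from 3.71 for Arhgap11a to 5.82 for Kif14. Kif14, a kinesin of the midbody, had 30.8 against 0.547 CPM (log2 ratio 5.82, interval 5.58 to 6.06). Prc1, which bundles the central spindle, had 398 against 10.6 CPM (log2 ratio 5.24). Cep55, which acts in the final cut, had 48.3 against 1.69 CPM (log2 ratio 4.84). Kif23, a subunit of centralspindlin, had 126 against 4.53 CPM (log2 ratio 4.79).

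The APC/C list split by role. Of 18 genes 5 were at least 2-fold higher. The separase Espl1 had 16.8 against 0.652 CPM (log2 ratio 4.69). The activator Cdc20 had 159.9 against 6.89 CPM (log2 ratio 4.54). The inhibitor Fbxo5 (Emi1) had 70.1 against 4.04 CPM (log2 ratio 4.12). The chain-elongating enzyme Ube2s had 54.5 against 16.4 CPM (log2 ratio 1.74). The activator Fzr1 (Cdh1) had 33.7 against 13.4 CPM (log2 ratio 1.33). The other 13 had log2 ratios from -0.08 to 0.62, and 12 of them were core subunits of the complex. The remaining one was Pttg1, which encodes securin, the inhibitor of separase, with 32.4 against 32.7 CPM (log2 ratio -0.01, interval -0.10 to 0.07). Pttg1 was seen in 74.6% of members and 75.7% of the others, although its partner Espl1 was among the highest genes of the list.

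Genes of chromosome structure and of the nuclear envelope were divided too. In the condensin and cohesin list 12 of 20 genes were at least 2-fold higher, with a median of 1.57. The condensin subunits Ncapg and Ncaph had 42.1 against 2.10 CPM (log2 ratio 4.33) and 44.2 against 2.93 CPM (log2 ratio 3.91). Cdca5 (sororin, which locks cohesin) had 16.5 against 1.10 CPM (log2 ratio 3.90). Smc2, a core condensin ATPase, had 287 against 19.9 CPM (log2 ratio 3.85). Among cohesin genes that act outside division too, Nipbl and Stag2 were near 0, at 0.14 and 0.13 on the log2 scale. The cohesin subunit Smc1a was higher in members, with a log2 ratio of 1.20. In the nuclear envelope list 5 of 11 were higher. Lmnb1, lamin B1, had 213 against 22.4 CPM (log2 ratio 3.25). The nesprin Syne2 had 50.9 against 10.5 CPM (log2 ratio 2.28). Lamin B2 (Lmnb2) had 13.0 against 2.95 CPM (log2 ratio 2.14). Tmpo, a lamin-binding protein, had 221 against 51.1 CPM (log2 ratio 2.11). Lmna, lamin A/C, had 525 against 445 CPM (log2 ratio 0.24).

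Of the transcription regulators of the cycle, 9 of 18 genes at 10 CPM were at least 2-fold higher. Foxm1, an activator of G2/M genes, had 40.7 against 2.86 CPM (log2 ratio 3.83, interval 3.71 to 3.95). The late repressors E2f8 and E2f7 had 28.5 against 2.32 CPM (log2 ratio 3.62) and 37.4 against 3.77 CPM (log2 ratio 3.31). Mybl2, which joins MuvB at CHR promoters, had 15.8 against 2.11 CPM (log2 ratio 2.90). Retinoblastoma protein genes differed among themselves. Rbl1 had 27.7 against 5.18 CPM (log2 ratio 2.42). Rb1 had 37.7 against 33.8 CPM (log2 ratio 0.15). Rbl2 had 15.3 against 16.3 CPM (log2 ratio -0.09). The NF-Y subunit genes Nfyb and Nfyc had ratios of 0.60 and 0.31, below 2-fold.

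**Figure D2:**
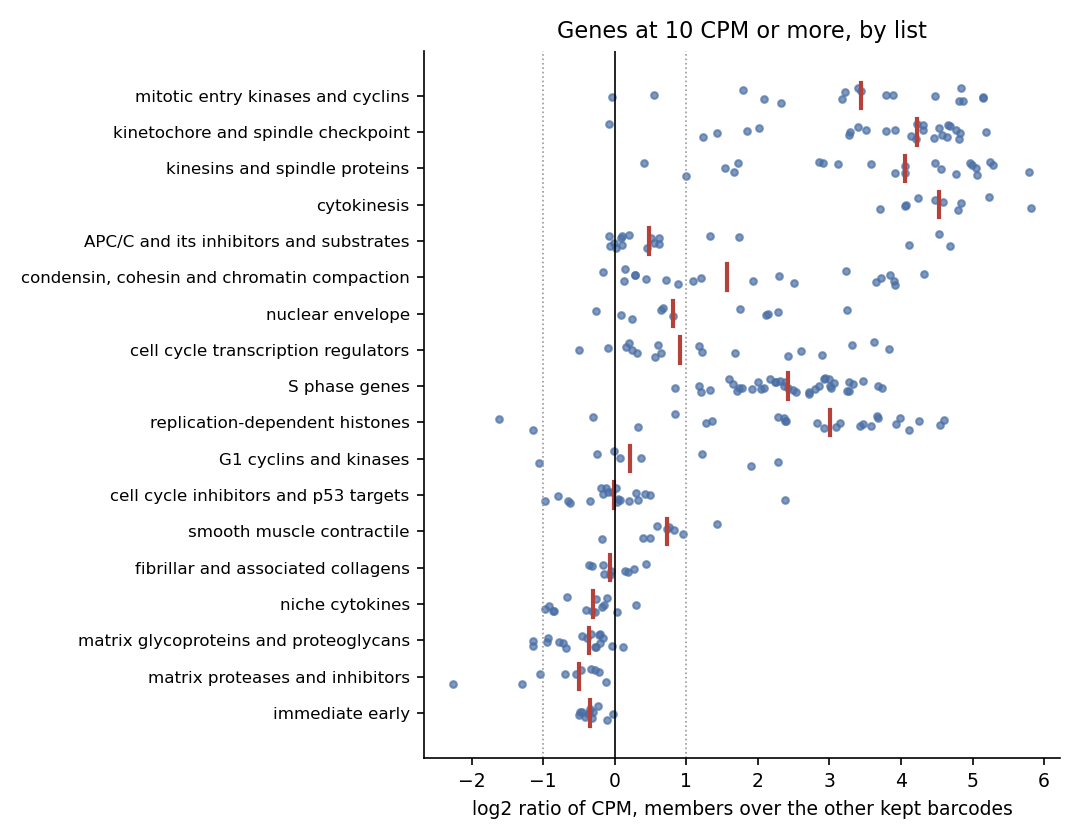
Log2 ratio of CPM in members over the other kept barcodes (x axis) for each gene at 10 CPM or more (points) in 18 gene lists (rows), with the list median as a red line and dotted lines at 2-fold. Medians of the mitosis lists lie between 3.44 and 4.53 except for the APC/C list at 0.48, and those of matrix, protease and immediate early lists lie below 0.

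Selection on mitosis genes also took in cells with S phase transcripts, so the name G2/M covers members only in part. Of 39 S phase genes at 10 CPM, 38 were at least 2-fold higher in members, with a median log2 ratio of 2.42 (2.44 in the primary library). Among the highest was Rad51ap1, of DNA repair by recombination, with 37.3 against 2.81 CPM (log2 ratio 3.73). The checkpoint adaptor Clspn had 108 against 9.71 CPM (log2 ratio 3.47). Dscc1, of the clamp loader, had 11.5 against 1.15 CPM (log2 ratio 3.33). The top decile of kept barcodes by the S phase list (455 barcodes) held 299 members, which is 56.2% of members (interval 51.9 to 60.5%), against 3.89% of the others. The top decile by a late mitosis list of 8 genes outside the rule (Aurka, Birc5, Ccnb1, Ccnb2, Cdc20, Cenpa, Plk1 and Pttg1) held 391 members, 73.5% of them (interval 69.5 to 77.2%), against 1.60% of the others. Late mitosis is only the name of this list. Plk1, Ccnb1, Ccnb2 and Aurka are grouped with mitotic entry above, and Pttg1 was level between members and the others (log2 ratio -0.01). A high level of the list therefore does not place a cell at the end of mitosis. In both top deciles were 194 members, 105 were in the S phase one only, 197 in the late mitosis one only and 36 in neither. Top deciles by late mitosis and by S phase also held 64 and 156 barcodes below the threshold.

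Split into quartiles of 133 by the late mitosis list, members were highest in replication transcripts in the lowest quartile. The S phase list had a median of 0.463% of UMIs in the lowest quartile and 0.155, 0.175 and 0.181% in the next 3. The median was 0.0363% in the barcodes below the threshold, so every quartile was above them. In the highest quartile it was also above the cut of the S phase top decile, 0.176%. Replication-dependent histone transcripts, which are made in S phase and destroyed at its end, had medians of 0.440, 0.0880, 0.0494 and 0.0352%. Their summed level was 4196, 2864, 1558 and 499 CPM from the lowest to the highest quartile, against 597 CPM in the barcodes below the threshold. With H2bc4 counted, the sum in the highest quartile was below that in the barcodes below the threshold. A large part of the sum in the latter came from H2bc4, which was lower in members. Sums without H2bc4 were not compared, so the order of these sums is not read as a lower level of histone transcripts in general. The rule score had medians of 0.147, 0.167, 0.277 and 0.439% over the same quartiles, and median UMIs were 75207, 76979, 68505 and 65871.

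Of the 39 S phase genes at 10 CPM, 38 were lower in the highest than in the lowest of these quartiles, 27 of them by 2-fold or more. The exception was Tyms, thymidylate synthase, with 122, 115, 95.1 and 129.9 CPM. Rrm1, a subunit of ribonucleotide reductase, was close to level with 169, 135, 160.3 and 161 CPM. The share of all genes that were lower between these quartiles was not computed, so the counts only describe the list. Many other genes higher in members were lower there too. With rule and late mitosis genes set aside, 62.6% of member-high genes with a CHR were higher in the highest quartile. Of those without a CHR, 40.2% were. Along these quartiles Cdc6, which licenses replication origins, had 23.1, 7.25, 3.48 and 1.19 CPM, Pola1, the primase-coupled polymerase, had 161, 79.9, 58.7 and 44.2 CPM, and Slbp, which binds histone transcripts, had 134, 87.7, 57.6 and 40.5 CPM. Fbxo5, the APC/C inhibitor of S and G2, was grouped with mitosis genes but had 113, 63.1, 54.9 and 50.5 CPM. Among rule genes Cenpf had 144, 279, 519.6 and 1163 CPM while Top2a had 411, 369, 436 and 637 CPM, so that of the 8 rule genes Top2a had the smallest ratio between the ends. Rrm2, the other subunit of ribonucleotide reductase, had 145, 104, 101 and 112 CPM. Kpna2, an importin that handles spindle factors, had 37.1, 50.5, 77.0 and 152 CPM, and Arhgap11a, of cytokinesis, had 60.9, 70.0, 116 and 154 CPM. Genes of the late mitosis list itself, such as Cdc20, were used to make the quartiles.

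**Figure D3:**
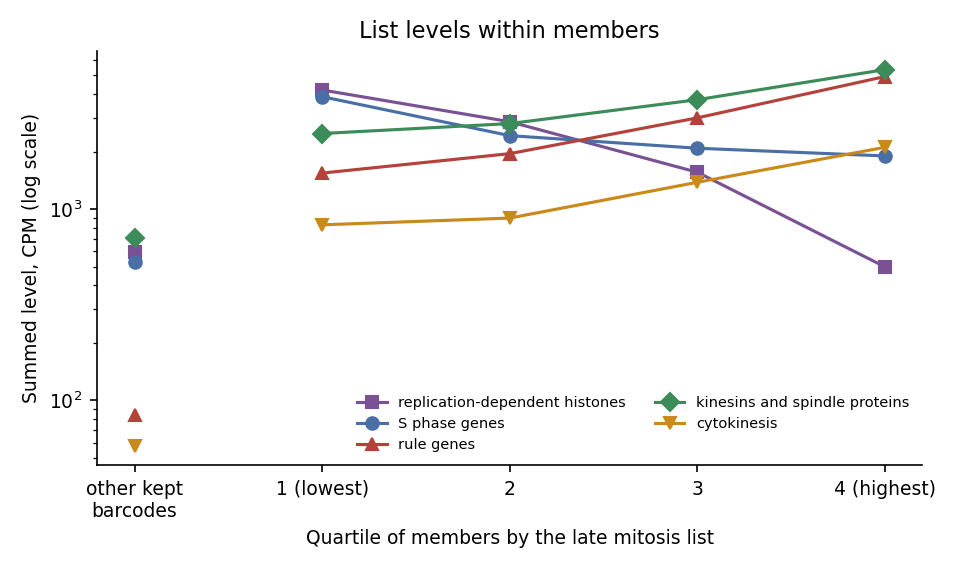
Summed level of 5 gene lists (y axis, CPM, log scale) in members split into quartiles by late mitosis transcripts (x axis, 133 barcodes each) and, at the left, in the other kept barcodes. Histone transcripts go from 4196 to 499 CPM, against 597 CPM in the other barcodes, where H2bc4 gives a large part. Rule genes go from 1542 to 4933 CPM.

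**Figure D4:**
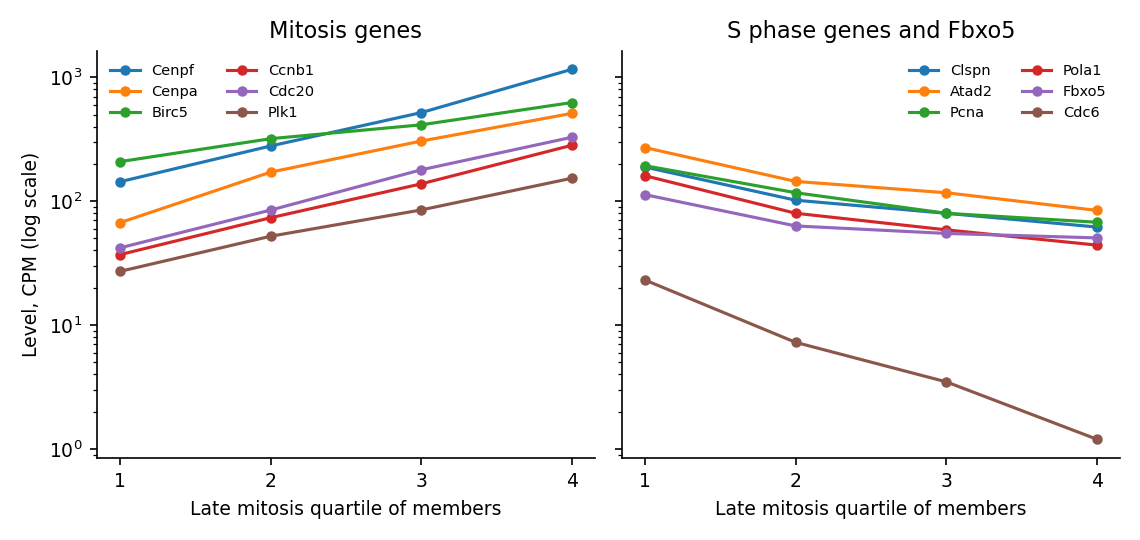
Level of single genes (y axis, CPM, log scale) in the 4 quartiles of members by late mitosis transcripts (x axis). All mitosis genes at the left are higher in quartile 4 than in quartile 1, where Ccnb1, Cdc20, Plk1, Birc5 and Cenpa helped to make the quartiles, and the 5 S phase genes and Fbxo5 at the right are lower.

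Promoter letters were also set against these quartiles. Among genes at least 2-fold higher in members, with rule genes and late mitosis genes set aside, 163 had a CHR in a promoter window and 261 had none. In the former, the median log2 ratio of the highest over the lowest late mitosis quartile (1 CPM added to each) was 0.36, and 62.6% of genes were above 0. In the latter it was -0.21, and 40.2% were above 0. The spread within each set was wide, with quartiles of -0.51 and 1.07 in genes with a CHR and -0.86 and 0.35 in genes without. Both sets passed the 2-fold filter through the same members that the quartiles divide. S phase genes, with a CHR in 17.1% of their promoters, were mostly lower in the highest quartile. Shares above 0 over all genes were not computed, so these values are a description, and a role of the CHR was not tested.

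Of 66 replication-dependent histone genes 26 reached 10 CPM, and 21 were at least 2-fold higher in members. H2ac24 had 729 against 67.5 CPM (log2 ratio 3.43). The linker histone H1f5 had 338 against 19.6 CPM (log2 ratio 4.11). H3c2 had 18.5 against 0.760 CPM (log2 ratio 4.60). H1f1 had 23.0 against 0.983 CPM (log2 ratio 4.55). H2bc4 and H2ac25 went the other way with 78.8 against 243 CPM (log2 ratio -1.62, interval -1.68 to -1.57) and 7.05 against 15.6 CPM (log2 ratio -1.14). The kit captures polyadenylated transcripts, and most replication-dependent histone transcripts lack a poly(A) tail, so these levels cover an unknown part of each. Near-identical histone copies may also share reads.

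Among G1 genes Ccne2 and Ccne1, the cyclin E genes, had 18.7 against 3.85 CPM (log2 ratio 2.28) and 38.8 against 10.4 CPM (log2 ratio 1.90). The phosphatase gene Cdc25a had 29.1 against 12.5 CPM (log2 ratio 1.22). Ccnd2, cyclin D2, was lower with 505 against 1055 CPM (log2 ratio -1.06, interval -1.08 to -1.04). Ccnd1 had 364 against 367 CPM (log2 ratio -0.01). Of 20 inhibitors and p53 targets only Cdkn2d, an INK4 inhibitor, was at least 2-fold higher in members, with 51.7 against 9.97 CPM (log2 ratio 2.38). Cdkn2b, also of the INK4 family, had 34.8 against 68.4 CPM (log2 ratio -0.98). Plk2, a stress-responsive kinase, had 143 against 248 CPM (log2 ratio -0.79). Gadd45a, a DNA damage gene, had 19.8 against 31.1 CPM (log2 ratio -0.65). Cdkn1a, which encodes p21, the inhibitor that p53 induces, differed little, with 593 against 645 CPM (log2 ratio -0.12).

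Stromal genes differed by less than 2-fold in most lists, as did most of all 8889 genes. Of these, 6.01% were at least 2-fold higher in members and 0.844% lower. Their median log2 ratio was -0.03, so more genes lay below 0 than above. None of 10 fibrillar and associated collagens passed 2-fold, and their median log2 ratio was -0.06. Col1a2 had 243 against 179 CPM (log2 ratio 0.44). Col1a1 had 827 against 688 CPM (log2 ratio 0.27). Col6a1 had 193 against 241 CPM (log2 ratio -0.32). Col8a1 had 169 against 217 CPM (log2 ratio -0.36). Of 18 matrix glycoprotein genes 17 were below 0, with a median of -0.36. Their list summed to 10010 CPM in members, 10062 CPM in barcodes from 0.05 to 0.1% and 13202 CPM in those under 0.05%. Lum (lumican) had 7.29 against 16.1 CPM (log2 ratio -1.15). Comp (cartilage oligomeric matrix protein) had 22.6 against 49.9 CPM (log2 ratio -1.14). Tnc (tenascin C) had 164 against 317 CPM (log2 ratio -0.95). Dcn (decorin) had 36.5 against 69.4 CPM (log2 ratio -0.93). All 10 matrix proteases and inhibitors were below 0, with a median of -0.51. Mmp13, the collagenase of hypertrophic cartilage, had 5.22 against 25 CPM (log2 ratio -2.26, interval -2.46 to -2.07). Mmp3 and Adamts1 had 4.20 against 10.4 CPM (log2 ratio -1.30) and 70.0 against 145 CPM (log2 ratio -1.05). Mmp13 was seen in 10.7% of members and 12.2% of the others.

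Niche cytokines, through which stromal cells act on blood stem cells, were below 0 for 12 of 14 genes, with a median of -0.30 and none at 2-fold. Over all 8889 genes the median was -0.03, so more genes lay below 0 than above, and 0.844% were at least 2-fold lower. Il6 had 13.2 against 26.1 CPM (log2 ratio -0.98). Fgf2 had 39.6 against 75 CPM (log2 ratio -0.92). Hgf had 7.81 against 14.2 CPM (log2 ratio -0.86). Fgf10 had 68.0 against 122 CPM (log2 ratio -0.85). Cxcl12, the chemokine that holds blood stem cells in the marrow, had 652 against 533 CPM (log2 ratio 0.29). All 12 immediate early genes were below 0, from -0.50 for Atf3 to -0.02 for Fosl1. Their list summed to 2426 CPM in members, 2546 CPM in barcodes from 0.05 to 0.1% and 3120 CPM in those under 0.05%. Of markers that the study itself chose on these libraries none passed 2-fold, and a list chosen that way is no independent evidence of a direction. The log2 ratios were 0.83 for Acta2, -0.63 for Spp1, -0.46 for Sox9 and -0.39 for Ly6a. Spp1, osteopontin, had 4447 against 6887 CPM. Glycolysis genes and endoplasmic reticulum chaperones had medians of 0.06 and -0.02.

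Contractile genes were the stromal list with the highest median, 0.73, and 8 of 9 were above 0. The list summed to 9033 CPM in members, 8845 CPM in the barcodes from 0.05 to 0.1% and 7104 CPM in those under 0.05%. Its level was thus not particular to members, being close to theirs just under the threshold. Actg2, enteric smooth muscle actin, had 25.7 against 9.53 CPM (log2 ratio 1.43, interval 1.33 to 1.53). Cnn1 (calponin) had 104 against 53.8 CPM (log2 ratio 0.95). Acta2 (smooth muscle actin) had 1986 against 1114 CPM (log2 ratio 0.83). Leiomodin (Lmod1) had 53.8 against 31.8 CPM (log2 ratio 0.76). The median barcode had 773 CPM of Acta2 among members and 162 CPM among the others. Cald1, an exception, had 2593 against 2928 CPM (log2 ratio -0.18). None of the 6 chondrocyte and 3 osteoblast genes at 10 CPM passed 2-fold, nor did most of all 8889 genes. Sox9, the regulator of cartilage fate, had 61.2 against 84.2 CPM. Runx2, the regulator of bone formation, had 98.5 against 114 CPM. Chondrocyte genes Acan, Matn1 and Snorc were below 10 CPM in both.

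Seen from the stromal genes, members were not spread evenly. Across quartiles of the summed level of Acta2 and Tagln, members made up 5.19, 8.54, 13.8 and 19.3% of barcodes, and the intervals of the lowest (3.98 to 6.65%) and highest (17.0 to 21.7%) lay apart. Median UMIs of these quartiles were between 63800 and 71290. Across quartiles of Sox9 the share went the other way, with 18.5, 10.9, 9.78 and 7.66%, but the lowest of these, in which the median Sox9 level was 0, also had the fewest UMIs with a median of 53332. For Mmp13 and Comp it was 13.9% in the 1831 barcodes with neither transcript and 5.75% in the top bin of those with one. It was 9.07 to 14.1% across quartiles of Col1a1, Col1a2 and Col3a1, 10.2 to 12.7% for Cxcl12 and 13.6 to 9.33% for Il1rl1 and Hmcn1. Quartiles of Ly6a (Sca-1) had 11.4, 12.1, 12.7 and 10.6%.

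With quartiles made within tertiles of UMIs, the Acta2 and Tagln bins ran from 5.10 to 19.4% members, and with all barcodes thinned to 5000 UMIs before binning and scoring from 6.61 to 18.3%. For Sox9 the same settings gave 17.1% in barcodes without a UMI and 8.31% in the top bin, and 12.8 and 8.26%. Depth still differed between the Sox9 bins within tertiles, with a median of 22171 UMIs in the 438 barcodes at 0 and 86994.5 in the top bin, but was equal by construction after thinning. Thinned, the top bin of Mmp13 and Comp held 2 members among 207 barcodes (0.966%, interval 0.117 to 3.45%). Why members were more frequent among barcodes with contractile transcripts was not tested.

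**Figure D5:**
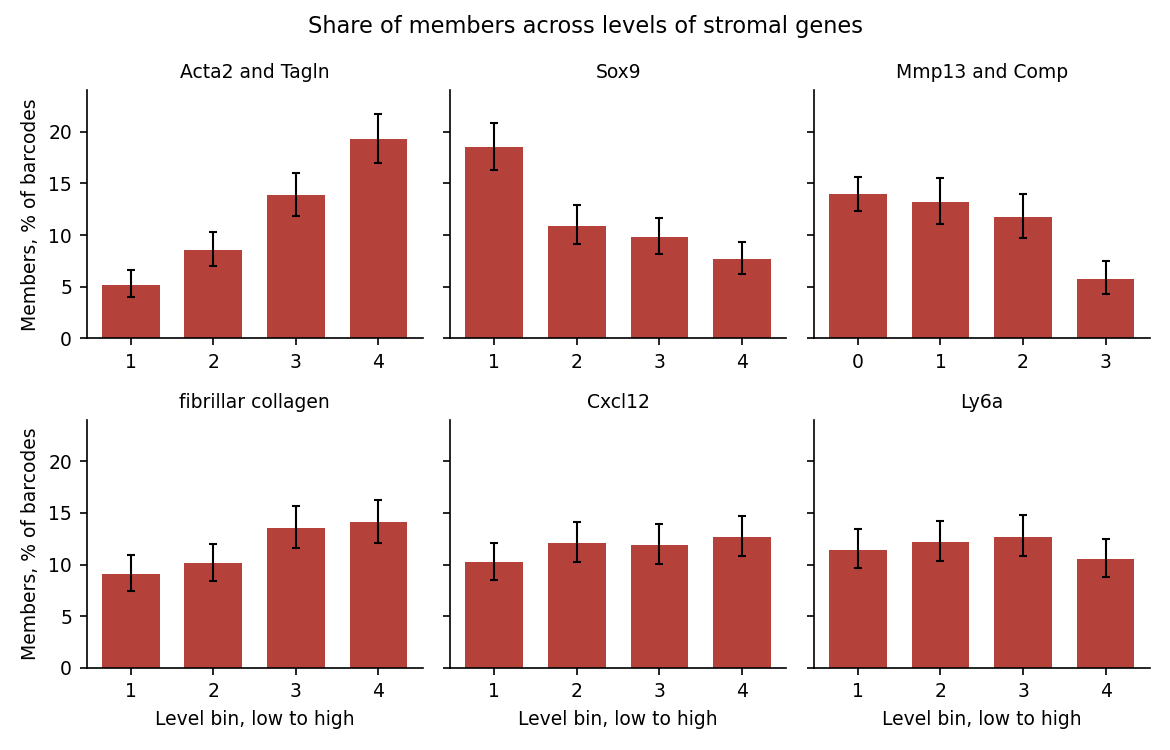
Share of members (y axis, percent of barcodes, with exact binomial 95% intervals) in bins of barcodes from low to high level (x axis) of 6 stromal gene sets, with 0 for barcodes without a UMI. Shares go from 5.19 to 19.3% for Acta2 and Tagln, from 18.5 to 7.66% for Sox9 and from 13.9 to 5.75% for Mmp13 and Comp. They lie between 10.2 and 12.7% for Cxcl12 and between 10.6 and 12.7% for Ly6a. Intervals cover counting error only.

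Outside the lists the highest genes in members at 50 CPM or more were again of division. Depdc1a had 60.8 against 1.57 CPM (log2 ratio 5.27). The mitotic kinase gene Pbk had 91.9 against 3.13 CPM (log2 ratio 4.87). Pimreg had 62.5 against 2.14 CPM (log2 ratio 4.87). Esco2, an acetyltransferase of cohesin, had 53.2 against 1.98 CPM (log2 ratio 4.75). The kinase gene Melk had 50.7 against 1.95 CPM (log2 ratio 4.70). Also among the highest 12 were Cdca2, Gas2l3, Tk1, Cdca3, Pclaf and Asf1b, with log2 ratios from 3.83 to 4.35. Tk1 encodes thymidine kinase and Pclaf a partner of PCNA, and Pclaf had 445 against 31.1 CPM.

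The lowest was Cemip, which breaks down hyaluronan, with 217 against 829 CPM (log2 ratio -1.93, interval -1.96 to -1.90). Its median was 81.7 CPM per member and 487 CPM per other barcode, and its log2 ratio in the primary library was -2.07. Acute phase genes Saa3 and Hp had 24.4 against 78.4 CPM (log2 ratio -1.68) and 51.8 against 126 CPM (log2 ratio -1.28). Cp (ceruloplasmin) had 81.4 against 176 CPM (log2 ratio -1.11). Ypel3, a gene linked to growth arrest, had 69.1 against 168 CPM (log2 ratio -1.28). Mxd4, a Max partner that opposes Myc, had 85.3 against 202 CPM (log2 ratio -1.24). Grem1, a secreted inhibitor of bone morphogenetic proteins, had 536 against 1169 CPM (log2 ratio -1.13). Gpx3, Fhit, Crebrf, Rcan2 and Mt2 completed the lowest 12, with log2 ratios from -1.28 to -1.11. In the primary library Saa3, Hp, Rcan2 and Cp were all below 10 CPM.

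Markers of other cell types were low in members. Ptprc, which encodes CD45 and was sorted against, had 45 UMIs over all members and 66 over the others (1.07 against 0.230 CPM). The haematopoietic list of 9 genes summed to 67.1 CPM in members and 26.2 CPM in the others. Pf4, platelet factor 4, had 31.6 against 4.37 CPM (log2 ratio 2.86), and 1306 of its 1331 UMIs in members came from 3 barcodes with at least 0.1% haematopoietic UMIs. Without the 9 such barcodes in the library Pf4 had 0.595 against 0.401 CPM, and the counts of genes at 2-fold were 532 higher and 77 lower. Endothelial and erythroid lists summed to 1.85 and 2.14 CPM in members, with Emcn, Tie1 and all 4 globin genes at 0. Skeletal muscle and Schwann lists summed to 25.9 and 29.9 CPM in members against 14.6 and 39.3 in the others, with Myod1, Pax7, Myf5 and Sox10 at 0 in members.

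The primary barcodes over the threshold also had high levels of division genes. Top2a had 469.5 CPM there, Cenpf 432 CPM and Mki67 409 CPM, beside 465, 532 and 474 CPM in cultured members. Zwint, Pttg1 and Ensa were again within 2-fold between primary barcodes over and under the threshold, with 61.4 against 45.6, 11.3 against 18.3 and 35.2 against 36.8 CPM. Col2a1, the collagen of cartilage, had 55465 CPM in the 141 primary barcodes and 546 CPM in cultured members. Acta2 had 214 and 1986 CPM. With 1 library of each kind, these values stand side by side without a comparison.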

How the data were processed

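Single-cell 3' libraries were made by the authors with the 10x Chromium v3.1 kit and processed with Cell Ranger 7.0.0. The deposited matrices hold whole-number UMI counts per gene and barcode for 21849 genes, not normalised. Reads were aligned to mm10 (GRCm38) per the study's methods, the submitters' processing notes also name GRCm39, and the gene annotation release is not given in the sources used here. Coordinates come from GENCODE for GRCm38, in which 21707 of the gene IDs were found. Promoters come from RefSeq.

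Counts of members and of the other kept barcodes were summed and scaled to CPM. Ratios used counts raised to at least 3, with exact conditional 95% intervals, shares had Clopper-Pearson intervals and single levels exact Poisson intervals. Genes were counted at 10 CPM or more in either group and 2-fold or more. All cover counting error within 1 library of each kind. PCR copies are collapsed by UMI, but barcodes of 1 culture are not replicates, so no p-value was computed. For comparisons of depth each barcode was thinned to 5000 UMIs at random.

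The members, gene lists and comparisons were chosen with earlier results of these data known. Named genes are the 8 rule genes, up to 4 genes per list with the largest absolute log2 ratio at 10 CPM or more, and the 12 highest and 12 lowest outside the lists at 50 CPM or more, without mitochondrial and ribosomal genes. Other genes named, among them Pttg1, Zwint, Ensa, H2bc4 and those along the late mitosis quartiles, were chosen after their values were seen. Some genes that the rule names are not reported here. The histone, mitochondrial and ribosomal lists, the late mitosis quartiles, the S phase top decile and the tables of promoter letters by quartile and by distance were added after the data were seen.

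No barcode was removed as a doublet. The automatic threshold of Scrublet called 1 of 5338 barcodes (0.0187%), so the caller did not work, and an alternative left out the 570 barcodes with the highest scores, 61 of them members. Python 3.11.15 with numpy 2.4.6, pandas 2.3.3, scipy 1.17.1, scanpy 1.11.5 and matplotlib 3.10.9, and R 4.3.3 with edgeR 4.0.16 (TMM factors only), were used. The computations were tested on simulated counts. The primary library was summed by the same rule.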

Additional observations from a re-analysis of the deposited data

Results flagged for a closer look

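Below the depth filter lay further barcodes with division transcripts. Of 6124 cultured barcodes with under 5000 UMIs, at least 500 genes and at most 10% mitochondrial UMIs (median 787 UMIs), 119 had a score of at least 0.1% and at least 3 UMIs of the 8 rule genes, which is 1.94% of them (exact binomial interval 1.61 to 2.32%). They are flagged because the filter keeps them out of every count above. Among the 795 of these with at least 1000 UMIs (median 1230) the share was 5.41% (interval 3.94 to 7.22%). What these barcodes hold was not tested.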

How the results depend on the processing

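Shares, counts of genes and list medians kept their direction under the alternatives that were run, where 79 values stayed within the counting interval or within 1.5 times the count and 36 moved. Log2 ratios of single genes stayed within their counting interval in 799 cases and moved in 701, and some near 0 changed sign, such as Ensa (0.013 after thinning). A score threshold of 0.05% gave 15.8% members, 46 lower genes and medians of 4.01 for mitosis genes outside the rule, 2.51 for S phase genes and -0.11 for collagens. A threshold of 0.2% gave 6.16% members and medians of 3.65 for mitosis and 1.91 for S phase. Leaving out 1 rule gene moved the share of members to 10.8% (Cenpf), 10.5% (Tpx2), 10.5% (Ube2c), 10.0% (Mki67), 10.2% (Top2a) and 10.6% (Hmmr). Without the barcodes of the highest Scrublet scores there were 119 lower genes and medians of 4.14 for mitosis, 2.60 for S phase and -0.12 for collagens. Thinning to 5000 UMIs gave 159 lower genes, a median of 2.34 for S phase and -0.27 for collagens, and shares of 0.966% in the highest bin of Mmp13 and Comp and 12.8% in the lowest of Sox9. Genes at 1 CPM or more held 233 lower ones, and genes at 50 CPM or more held 217 higher and 25 lower ones with a mitosis median of 4.05. Collagens had a median of -0.11 without the highest 5% of UMIs and of -0.16 with barcodes weighted equally. Alternatives chosen after the data were seen were leaving out the S phase top decile (5.70% members, 353 higher genes, medians of 3.77 for mitosis, 1.77 for S phase and -0.094 for collagens), comparing with barcodes under 0.01% only (4.54 and 3.01 for mitosis and S phase), leaving out haematopoietic barcodes and TMM factors for single genes. The median shift of 500 named or listed genes was 0.02 with TMM, which turned the sign of 9. Equal weighting turned 29 and thinning 37. The cause of these differences was not tested beyond what each setting changes. No paired analysis was possible because each group is 1 library. Depth limits genes below 10 CPM, which were not counted.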
